A study of Mus musculus with 12 samples.

Results

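The genes of the constitutive proteasome were described in sorted bone marrow hematopoietic stem cells (HSCs) that lacked or carried *Ythdc1*, which encodes a nuclear reader of m6A in RNA. The members were all genes of the count table whose symbol is *Psma*, *Psmb*, *Psmc* or *Psmd* followed by a number, leaving out the interferon-induced *Psmb8* and *Psmb9*. This gave 37 of 55335 genes, spread over 16 chromosomes. They comprised 8 alpha and 9 beta subunits of the core, 6 ATPases, 3 other subunits of the base of the regulatory particle, 8 subunits of its lid and 3 genes with a *Psmd* name whose products are chaperones of base assembly. The label "constitutive" does not suit 3 of them by general knowledge, since *Psmb10* is induced by interferon, *Psmb11* belongs to the thymus and *Psma8* to the testis. The main counts are also given without them.

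HSCs came from donor mice aged 8 weeks on a C57BL/6 background (strain C57B6 in the labels). *Ythdc1* Δ/Δ mice (labelled Ythdc1 KO) carried *Ythdc1* fl/fl and Mx1-Cre, *Ythdc1* +/+ mice (labelled wild type) carried Mx1-Cre with intact *Ythdc1*, and both received pIpC, which triggers interferon and with it the Cre. Mx1-Cre acts in any cell that responds to interferon, so deletion is not limited to HSCs. Cells were enriched with beads against CD117 and then sorted, and polyadenylated RNA was sequenced from 12 libraries, 6 per genotype. Titles name 3 *Ythdc1* Δ/Δ samples (KO176, KO177, KO209) and 3 *Ythdc1* +/+ samples (WT178, WT180, WT207), each with 2 libraries, whose counts were summed. Nothing in the labels ties a sample to 1 mouse, and the p-values therefore measure the spread between samples, which could be technical in part.

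The proteasome is the protease that degrades proteins tagged with ubiquitin. Its core is a barrel of stacked rings in which alpha subunits guard the entrance and beta subunits line the chamber, where *Psmb5*, *Psmb6* and *Psmb7* supply the proteolytic sites. A regulatory particle caps the barrel, with a base of ATPases that unfold the substrate and thread it in, and a lid that removes the ubiquitin chain. Interferon replaces the catalytic subunits by *Psmb8*, *Psmb9* and *Psmb10*, which form the immunoproteasome. HSCs are known for a low rate of protein synthesis and for their sensitivity to misfolded proteins.

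Libraries held 20809936 to 24563170 counts in genes, and the members took 1.03% to 1.20% of them with *Ythdc1* deleted and 1.01% to 1.12% without deletion. *Ythdc1* itself was at 56.8, 69.6 and 69.6 CPM (counts of a gene relative to the library total, scaled by TMM) in KO176, KO177 and KO209 and at 76.0, 72.6 and 92.5 CPM in WT178, WT180 and WT207. Its count covers all exons, those outside the deleted part included, and so is no test of the labels. The 11 HSC markers were all detected, *Hoxb5* at 0.703 CPM or more in each sample, and 9 of the 11 had a log2 fold change below 0. Markers of other cells were present, and several of these lists leaned one way. Of 10 B cell markers 9, of 10 granulocyte markers 10, of 6 macrophage markers 6, of 8 tested stromal and endothelial markers 7 and of 8 erythroid markers 7 had a log2 fold change above 0, against 48.9% of all genes tested. Summed over each list, the B cell markers spanned 312 to 600.0 CPM over the *Ythdc1* Δ/Δ samples and 167 to 226 CPM over the others. *Jchain* made up much of that gap, at 228, 156 and 483 CPM in KO176, KO177 and KO209 and 35.3, 91.7 and 92.3 CPM in WT178, WT180 and WT207. *Cd79b* overlapped, at 110, 101 and 80.8 CPM against 103, 108 and 92.7 CPM, and *Ms4a1* and *Pax5* were under 1 CPM in all. The granulocyte markers spanned 12740 to 24353 CPM and 10718 to 14033 CPM, highest in KO176. Of 9 stromal and endothelial markers, at 111 to 125 CPM and 82.2 to 98.5 CPM in all, *Lepr*, *Adipoq* and *Sparc* were higher at an adjusted p under 0.05 in edgeR, and *Cdh5* was under 1 CPM. *Pecam1* held most of these sums, at 102, 93.5 and 79.1 CPM against 80.5, 91.8 and 70.9 CPM, with an overlap. Macrophage markers (6 genes) were at 60.0 to 147 CPM and 48.5 to 73.0 CPM, and erythroid markers (8 genes) at 44.2 to 61.3 CPM and 38.3 to 58.2 CPM. Of the macrophage markers, *Csf1r* was at 98.5, 47.7 and 18.8 CPM against 33.4, 49.7 and 14.9 CPM, highest in KO176 and with an overlap. The part of such cells in the values below was not tested. KO176 stood at the upper end for most members, and the main values are also given without it. Fewer cells of a type and less RNA per cell cannot be told apart in these bulk samples.

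Promoters are shown for 3 regulatory particle genes, *Psmd6*, *Psmd13* and *Psmc1*. They were among the 3 with the smallest p in their class and hold a match to a motif searched. Others that also met this rule, such as *Psmc2* and *Psmd12*, are not shown. The core gene *Psmb5*, whose fold change was close to 1, is shown beside them. The windows run from 250 bases before to 50 bases after the start in RefSeq (GRCm38.p6, the same assembly as mm10), 5′ to 3′ along the gene. Capitals mark CCGGAAGT, a site of ETS factors, read on either strand, in the first 3 promoters. In the last they mark TGACNNNGC, the antioxidant response element to which NFE2L1, the factor known for raising proteasome genes, binds.
Psmd6, chr14:14120896-14121195, strand minus: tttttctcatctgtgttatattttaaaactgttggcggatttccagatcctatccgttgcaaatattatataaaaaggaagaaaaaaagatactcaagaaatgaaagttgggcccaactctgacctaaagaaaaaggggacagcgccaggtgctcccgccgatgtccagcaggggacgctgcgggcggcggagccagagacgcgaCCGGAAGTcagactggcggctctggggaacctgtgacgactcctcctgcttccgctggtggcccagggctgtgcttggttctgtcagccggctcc
Psmd13, chr7:140882144-140882443, strand plus: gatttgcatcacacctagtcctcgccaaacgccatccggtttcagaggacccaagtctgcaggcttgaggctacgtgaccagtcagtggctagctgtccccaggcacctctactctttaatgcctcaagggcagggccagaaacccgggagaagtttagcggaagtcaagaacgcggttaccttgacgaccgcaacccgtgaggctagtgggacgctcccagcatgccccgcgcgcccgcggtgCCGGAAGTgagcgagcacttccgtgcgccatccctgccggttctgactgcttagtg
Psmc1, chr12:100109952-100110251, strand plus: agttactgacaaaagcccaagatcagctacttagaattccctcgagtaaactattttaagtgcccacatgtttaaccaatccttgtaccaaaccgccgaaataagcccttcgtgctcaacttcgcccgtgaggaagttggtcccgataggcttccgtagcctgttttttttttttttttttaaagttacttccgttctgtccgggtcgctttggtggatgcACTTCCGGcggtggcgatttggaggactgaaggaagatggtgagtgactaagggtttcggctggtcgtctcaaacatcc
Psmb5, chr14:54617946-54618245, strand minus: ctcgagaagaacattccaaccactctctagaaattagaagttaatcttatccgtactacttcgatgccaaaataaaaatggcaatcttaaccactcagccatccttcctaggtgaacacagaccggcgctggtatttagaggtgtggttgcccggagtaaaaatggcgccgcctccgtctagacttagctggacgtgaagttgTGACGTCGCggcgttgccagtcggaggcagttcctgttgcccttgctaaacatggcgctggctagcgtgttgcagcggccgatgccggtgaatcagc
The match lay 45 bases before the start in *Psmd6*, 6 in *Psmd13* and 29 in *Psmc1*, and 47 bases before the start in *Psmb5*. *Psmc5*, the ATPase gene with the smallest p, and *Psmd1*, the member with the largest log2 fold change, held 0 matches to either motif.

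RefSeq gave 32 promoters for 30 of the 37 members, and *Psma8*, *Psmb1*, *Psmb2*, *Psmb7*, *Psmc3*, *Psmd3* and *Psmd7* had no entry. CCGGAAGT stood in 7 of the 32 (21.9%), in *Psma6*, *Psmc1*, both promoters of *Psmc2*, *Psmd6*, *Psmd12* and *Psmd13*, against 3.89% of all 32851 promoters of this length. TGACNNNGC stood in 5 (15.6%, against 12.4% of all), in *Psmb5*, *Psmb6*, *Psmc6*, *Psmd12* and *Psmd9*. Their log2 fold changes were 0.01, -0.06, 0.17, 0.19 and 0.09, and whether a motif goes with a change was not tested. The CCAAT box, bound by NF-Y, stood in 37.5%, against 37.4% of all. The interferon-stimulated response element stood in 9.38%, in *Psmb3*, *Psmd4* and *Psmd9*, against 3.44% of all. Both strands were read, none of the 4 motifs contains another, and a match is a description of the letters in the window.

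Levels were compared between members as CPM per kb of gene model, the length of all exons of a gene in the annotation. *Psmb2*, a beta subunit without proteolytic site, had the highest at a mean of 487 over the 6 samples. Among core genes *Psmb5* (339 CPM per kb), *Psmb6* (319 CPM per kb) and *Psma6* (316 CPM per kb) came next. The 6 ATPases lay between 40.6 and 193 CPM per kb and the 8 lid genes between 43.7 and 142 CPM per kb. *Psma8* was lowest of the tested members at 5.70 CPM per kb, 85.5-fold below *Psmb2*. Without *Psma8*, *Psmb10* and *Psmb11* the lowest was *Psmd9*, 47.1-fold below *Psmb2*. *Psmb7*, whose product is catalytic, was at 18.2 CPM per kb, far below the other catalytic genes. Its gene model is 3421 bases long, against 1872 for *Psmb6* and 899 for *Psmb5*, and its values of 55.4 to 76.1 CPM were also low without division by length. The order of the classes is coarse, because exons that few transcripts use lengthen a gene model.

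**Figure D1:**
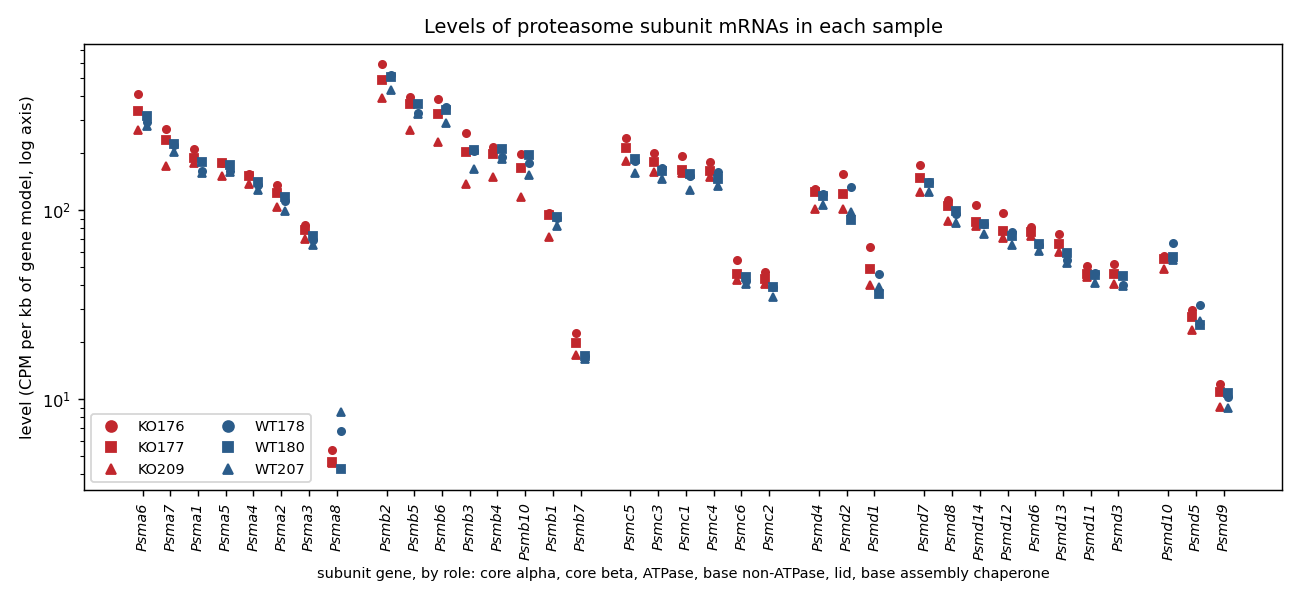
Level of each tested member (vertical axis, CPM per kb of gene model, log axis) in the 6 samples, by role and within a role by mean level (horizontal axis). Red symbols are *Ythdc1* Δ/Δ and blue symbols *Ythdc1* +/+ samples, and the spread between genes, from 5.70 for *Psma8* to 487 for *Psmb2*, is far wider than that between samples.

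Most members varied little. The coefficient of variation over the 6 samples had a median of 11.9% over the 36 tested members and ran from 6.76% for *Psma5* to 29.0% for *Psma8*. KO176 was the highest sample for 32 of the 36. WT207 was the lowest for 19 and KO209 for 14, so that both samples with the later numbers lay low. The TMM factors, which divide the CPM, were 0.901 in KO176, 1.08 in KO209 and 1.06 in WT207, and so widen this gap. Before TMM the members took 1.18% and 1.20% of the counts in the libraries of KO176. They took 1.03% and 1.06% in those of KO209 and 1.01% and 1.07% in those of WT207. The 2 libraries of a number differed by a median of 0.05 (WT178) to 0.14 (WT207) on the log2 scale over the members.

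The main comparison asked whether loss of YTHDC1 went with a different level of these mRNAs. No member passed an adjusted p of 0.05 in edgeR's quasi-likelihood test over all 18234 genes tested, in which 0.137% of the genes passed, and the smallest adjusted p was 0.476. At an unadjusted p under 0.05, 1 member was higher (4.28% of all genes) and 0 were lower (5.2% of all genes). DESeq2 called 0 members (1.19% of all genes), and 2 were higher at an unadjusted p under 0.05 (4.35% of all genes). limma's voomLmFit, with the number as a random block over the 12 libraries, also called 0 (0.784% of all genes), with 8 higher at an unadjusted p under 0.05 (6.1% of all genes). Treating the 12 libraries as separate samples called *Psmd6* and *Psmd13* (4.83% of all genes), and with a replicate block for the last digit of the title *Psmd6* alone was called (smallest adjusted p = 0.0284 in edgeR; 4.61% of all genes). These last fits take the libraries of a number as independent.

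The members lay mostly on one side. Of the 36, 29 had a log2 fold change (*Ythdc1* Δ/Δ minus *Ythdc1* +/+) above 0, that is 80.6%, against 48.9% of all genes tested. Their median log2 fold change was 0.14, against -0.01 over all genes. Among the 641 tested genes between 7.68 and 8.62 log2 CPM, the interquartile range of the members, 66.6% were above 0 and the median was 0.07, so part of this side was shared by genes of similar level. Without *Psma8*, *Psmb10* and *Psmb11* the median was 0.15, with 29 of 34 above 0. Without KO176 the median was 0.06, with 24 of 36 above 0. It was 0.23 without KO209 and 0.09 without WT207. *Ythdc1* Δ/Δ and *Ythdc1* +/+ samples did not overlap, with the former higher, in 5 members (7.75% of all genes), *Psmb7*, *Psmc1*, *Psmc2*, *Psmd6* and *Psmd13*, and in 0 members with the former lower (8.59% of all genes). Of the 641 genes of similar level 13.1% did not overlap and were higher, close to the members' 13.9%. That count depends on the scaling and on 1 sample. It was 11 with upper quartile scaling (7.82% of all genes), 13 without a TMM factor (6.14% of all genes) and 25 without KO209 (16.7% of all genes).

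The fit bounded most differences. In 33 members the 95% interval of the fold change lay within 1.5-fold either way, that is 91.7%, against 45.9% of all genes tested and 81.7% of the 641 genes of similar level. Without *Psma8*, *Psmb10* and *Psmb11* it was 32 of 34. The exceptions were *Psma8*, *Psmd1* and *Psmd2*. The width of the intervals is set by 3 samples per genotype. With 1 sample left out, the count of members within 1.5-fold spanned 24 (without WT178) to 33 (without KO176). It was 35 with the 12 libraries as separate samples.

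**Figure D2:**
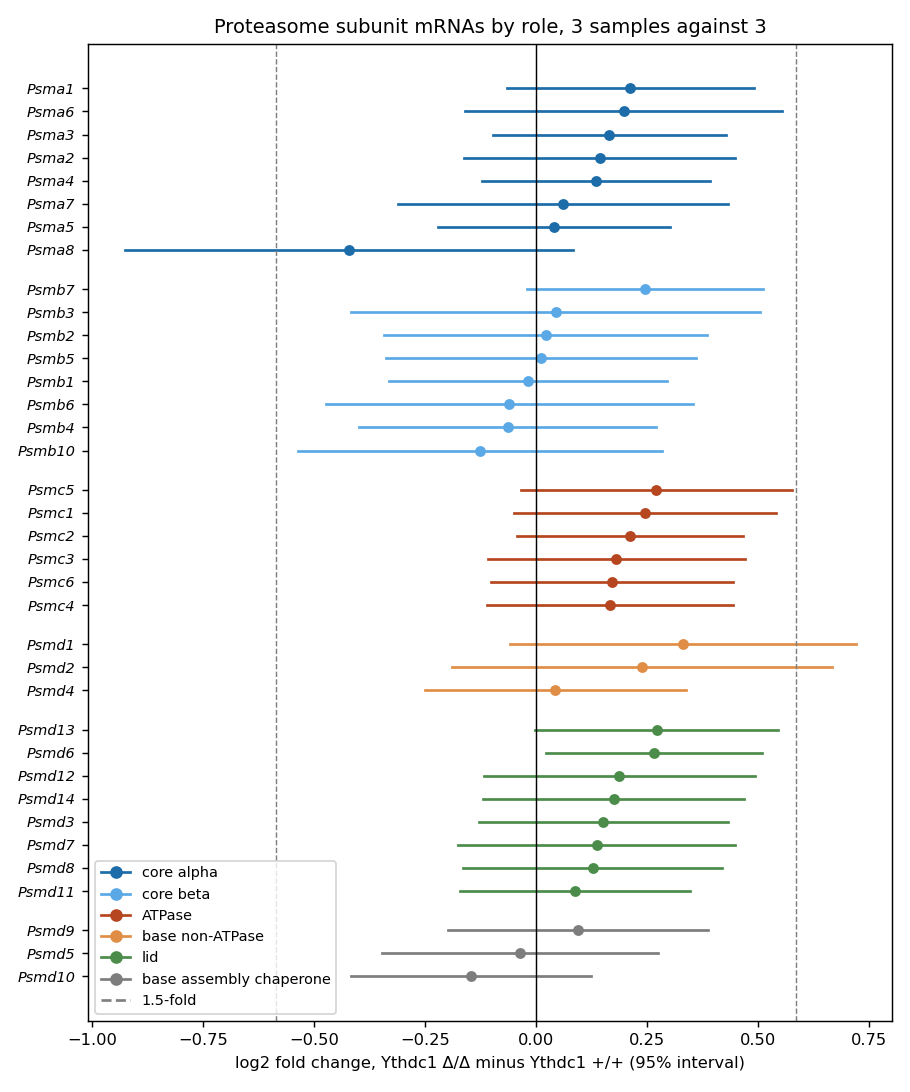
Log2 fold change of each tested member with its 95% interval from edgeR (horizontal axis), by role and within a role by size (vertical axis), for 3 *Ythdc1* Δ/Δ against 3 *Ythdc1* +/+ samples. Dashed lines mark 1.5-fold, and all points of the ATPases, the other base subunits and the lid lie above 0, with 4 of the 8 core beta genes below it.

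The alpha subunits form the outer rings of the core. Of the 8, 7 had a log2 fold change above 0, with a median of 0.14, and none had groups that did not overlap. Without KO176 the median was 0.05, with 6 of 8 above 0, and without KO209 it was 0.23. *Psma1* was at 618, 558 and 523 CPM in KO176, KO177 and KO209 and at 476, 528 and 463 CPM in WT178, WT180 and WT207. WT180 exceeded KO209, and the log2 fold change was 0.21 (standard error, SE, 0.12, edgeR adjusted p = 0.628). *Psma3* was at 324, 305 and 275 CPM against 271, 283 and 253 CPM, again with an overlap, and its log2 fold change was 0.16 (SE 0.12, edgeR adjusted p = 0.695). *Psma4*, *Psma5*, *Psma6*, *Psma7* and *Psma2* had log2 fold changes of 0.04 to 0.20.

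*Psma8*, the alpha subunit known from the spermatoproteasome of male germ cells, was the exception. It was at 13.4, 11.6 and 11.4 CPM in KO176, KO177 and KO209 and at 16.95, 10.6 and 21.2 CPM in WT178, WT180 and WT207. WT180 was the lowest of all 6 samples, so the groups overlapped. The log2 fold change was -0.42 (SE 0.23, edgeR adjusted p = 0.597), from a fold of 0.526 to 1.06 at the bounds of the interval. It was -0.18 without WT207 and -0.66 without WT180. It rested on 247 to 512 reads per library, and no 100-base stretch of its transcripts is shared with another gene.

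The beta subunits, which form the inner rings, were split evenly, 4 of 8 tested above 0, with a median log2 fold change of -0.00378. Without *Psmb10* the median of the other 7 was 0.01. *Psmb6*, of the site that cuts after acidic residues, was at 725, 601 and 429 CPM in *Ythdc1* Δ/Δ samples KO176, KO177 and KO209 and at 657, 635 and 537 CPM in WT178, WT180 and WT207. The *Ythdc1* Δ/Δ samples thus held both the highest and the lowest value, and the fold was 0.959 (95% interval 0.72 to 1.28). *Psmb5*, of the site that cuts after hydrophobic residues, showed the same spread, at 355, 325 and 237 CPM against 294, 326 and 290.0 CPM. Its fold was 1.01 (95% interval 0.792 to 1.28). *Psmb2* was at 710, 588 and 473 CPM against 623, 606 and 517 CPM, a fold of 1.01 (95% interval 0.789 to 1.30). *Psmb4*, a structural subunit, was at 420, 387 and 291 CPM against 373, 410 and 365 CPM, a fold of 0.956 (95% interval 0.758 to 1.21). For all these genes KO209 was the lowest of the 6 samples. Without KO209, 8 of the 8 beta genes were above 0, with a median of 0.14, and without KO176 1 of 8 was, with a median of -0.15.

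*Psmb7*, of the site that cuts after basic residues, departed from the other beta genes. It was at 76.1, 68.1 and 58.7 CPM in KO176, KO177 and KO209 and at 57.7, 58.0 and 55.4 CPM in WT178, WT180 and WT207. Each *Ythdc1* Δ/Δ sample lay above each *Ythdc1* +/+ sample, closest between KO209 and WT180. The log2 fold change was 0.25 (SE 0.12, edgeR adjusted p = 0.557), or 0.16 without KO176. In single libraries the ranges overlapped, 58.4 to 77.6 CPM against 52.7 to 60.4 CPM. Its exons overlap those of *Nek6* over 11.8% of their length, and reads there cannot be told apart without strand.

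The catalytic subunits can be set against their interferon-induced counterparts, and the ratio of their levels per kb within a sample does not depend on the scaling of libraries. *Psmb8* was at 0.766, 0.705 and 0.603 of *Psmb5* in KO176, KO177 and KO209 and at 0.768, 0.742 and 0.629 of it in WT178, WT180 and WT207. The ratio thus fell in the same range in both genotypes and was lowest in KO209 and WT207 (2-sided exact permutation test, p = 0.6). *Psmb9* was at 0.171, 0.231 and 0.233 of *Psmb6* against 0.200, 0.225 and 0.230 (exact permutation, p = 1). *Psmb10* exceeded *Psmb7* in all samples, 8.85-, 8.39- and 6.85-fold in the *Ythdc1* Δ/Δ samples and 10.5-, 11.5- and 9.39-fold in the *Ythdc1* +/+ samples. These last groups did not overlap (exact permutation, p = 0.1, which is as low as this design can reach, and 0.3 when adjusted over the 3 pairs). *Psmb8* shares 14.7% of its exon bases with another gene model and *Psmb9* 5.79%.

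**Figure D3:**
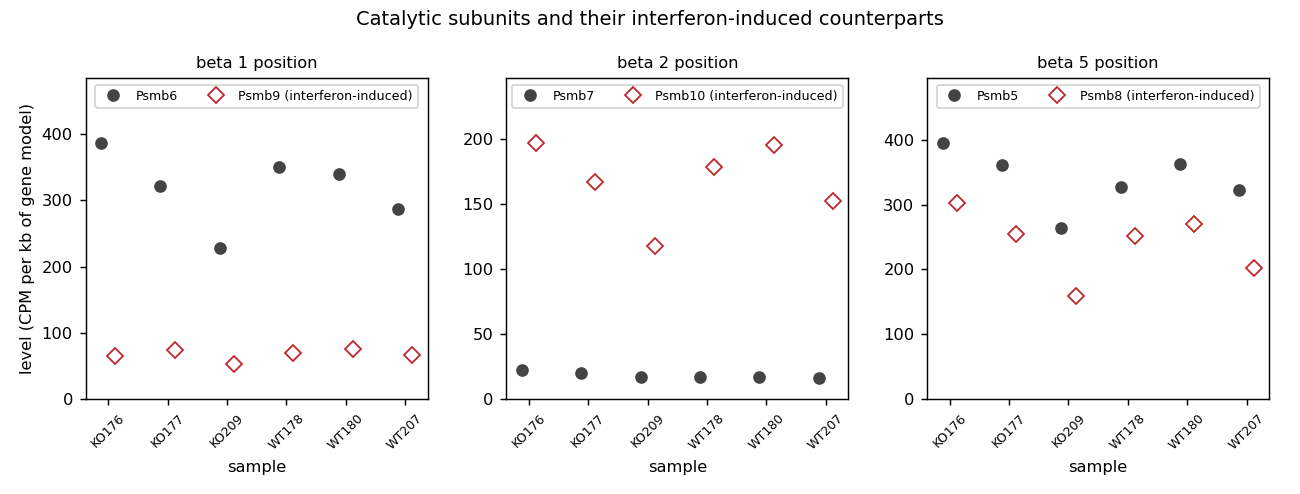
Levels per kb of gene model (vertical axis, CPM per kb, starting at 0) of the catalytic subunits *Psmb6*, *Psmb7* and *Psmb5* (filled circles) and of the interferon-induced *Psmb9*, *Psmb10* and *Psmb8* (open diamonds) in each sample (horizontal axis). *Psmb9* stays under *Psmb6* and *Psmb8* under *Psmb5* in all 6 samples, whereas *Psmb10* lies 6.85- to 11.5-fold above *Psmb7*.

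*Psmb10*, the interferon-induced gene that the naming rule keeps among the members, was at 336, 285 and 200.3 CPM in *Ythdc1* Δ/Δ samples KO176, KO177 and KO209 and at 303, 333 and 260 CPM in WT178, WT180 and WT207. KO176 and WT180 were the highest, and the log2 fold change was -0.13 (SE 0.18, edgeR adjusted p = 0.861), from -0.29 without KO176 to 0.06 without KO209. *Psmb8* and *Psmb9* had log2 fold changes of -0.01 and -0.14. *Psmb11*, the subunit of the thymoproteasome, had 0 to 2 reads per *Ythdc1* Δ/Δ library and 0 to 4 per *Ythdc1* +/+ library, and was not tested. It lies 3410 bases from *Psmb5*, the closest pair among the members.

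All 6 ATPases of the base had a log2 fold change above 0, with a median of 0.20 and a range of 0.17 to 0.27. *Psmc5* was at 334, 296 and 252 CPM in KO176, KO177 and KO209 and at 254, 258 and 219 CPM in WT178, WT180 and WT207. KO209 lay below WT178 and WT180, and the log2 fold change was 0.27 (SE 0.14, edgeR adjusted p = 0.575), or 0.18 without KO176. *Psmc1* was at 374, 315 and 303 CPM against 291, 299 and 248 CPM. Here each *Ythdc1* Δ/Δ sample was above each *Ythdc1* +/+ sample, and so it was in single libraries (302 to 374 CPM against 227 to 300.5 CPM). The log2 fold change was 0.24 (SE 0.13, edgeR adjusted p = 0.601), or 0.15 without KO176. *Psmc2* was at 235, 217 and 206 CPM against 197, 197 and 175 CPM, also without overlap, with a log2 fold change of 0.21 (SE 0.11, edgeR adjusted p = 0.604). The 6 genes kept their direction in each alternative fit, with medians of 0.13 (without KO176) to 0.26 (without KO209).

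Of the 3 other base subunits, *Psmd1* and *Psmd2* are scaffolds that dock ubiquitin carriers and *Psmd4* is a ubiquitin receptor. *Psmd1* was at 461, 353 and 291 CPM in KO176, KO177 and KO209 and at 334, 260 and 285 CPM in WT178, WT180 and WT207. KO176 stood apart, and WT178 exceeded KO209. Its log2 fold change of 0.33 (SE 0.18, edgeR adjusted p = 0.591) was 0.14 without KO176. *Psmd2* had the same pattern, at 622, 491 and 407 CPM against 535, 358 and 396 CPM, and a log2 fold change of 0.24 (SE 0.19), or 0.07 without KO176. *Psmd4* was at 364, 351 and 285 CPM against 342, 331 and 298 CPM, a fold of 1.03 (95% interval 0.84 to 1.26).

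The lid holds the deubiquitinase *Psmd14* and structural subunits. All 8 lid genes among the members had a log2 fold change above 0, from 0.09 for *Psmd11* to 0.27 for *Psmd13*, with a median of 0.16. The naming rule does not take in *Sem1*, which is listed below with the genes bound to the particle and had -0.13. *Psmd6*, a structural subunit of the lid, was at 228, 213 and 205 CPM in KO176, KO177 and KO209 and at 182, 186 and 170.3 CPM in WT178, WT180 and WT207. No sample overlapped, nor did single libraries (205 to 235 CPM against 165 to 187 CPM). Its fold was 1.20 (95% interval 1.02 to 1.42, unadjusted p = 0.0349 and adjusted p = 0.476 from edgeR), and its log2 fold change of 0.27 spanned 0.23 to 0.30 over the alternative fits. *Psmd13* was at 252, 222 and 202 CPM against 183, 200.5 and 176.7 CPM, also without overlap, with a fold of 1.21 (95% interval 0.998 to 1.46, adjusted p = 0.529 from edgeR). Its exons overlap those of *Sirt3* over 10.1% of their length. *Psmd12* was at 254, 205 and 189 CPM against 202, 194 and 173 CPM, with an overlap, and its log2 fold change of 0.19 was 0.06 without KO176. The 8 lid genes were above 0 in each alternative fit, with medians of 0.06 (without KO176) to 0.25 (without KO209).

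The 3 chaperones leave before the particle is complete, and 1 of their genes had a log2 fold change above 0. *Psmd10*, also known as gankyrin, was at 84.3, 80.5 and 71.3 CPM in KO176, KO177 and KO209 and at 98.2, 83.2 and 80.2 CPM in WT178, WT180 and WT207. KO209 was the lowest and WT178 the highest, with a log2 fold change of -0.15 (SE 0.12, edgeR adjusted p = 0.733), or -0.05 without WT178. *Psmd5* was at 214, 196 and 167 CPM against 227, 178.4 and 186 CPM (log2 fold change -0.04) and *Psmd9* at 87.3, 79.1 and 65.9 CPM against 74.1, 78.2 and 65.2 CPM (log2 fold change 0.09). Both ranges overlapped. Without WT178 the median of the 3 genes was 0.08, with 2 above 0, against -0.04 in the comparison of all samples. Of the 100-base stretches of *Psmd9* 23.9% also occur in the gene model *Gm26745*.

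The classes were set side by side within each sample as the mean log2 CPM of their genes relative to the mean of all 6 samples. The ATPases stood at 0.27, 0.08 and -0.04 in KO176, KO177 and KO209 and at -0.04, -0.04 and -0.22 in WT178, WT180 and WT207. The beta genes stood at 0.26, 0.07 and -0.35 and at 0.05, 0.09 and -0.12. The difference of the ATPases minus the beta genes does not depend on the scaling. It was 0.00434, 0.0143 and 0.31 in the *Ythdc1* Δ/Δ samples and -0.09, -0.14 and -0.10 in the *Ythdc1* +/+ samples. These values did not overlap between genotypes, and KO209 was far from the other 2 of its group. Without *Psmb10* it was 0.00304, 0.00651 and 0.29 against -0.08, -0.12 and -0.10. For the lid minus the beta genes the values were -0.00287, -0.00162 and 0.28 against -0.10, -0.11 and -0.06, while for the ATPases minus the lid all 6 lay within -0.04 and 0.03. For the alpha minus the beta genes they overlapped, at -0.06, -0.01 and 0.20 against -0.06, -0.12 and 0.07. No test was made of these scores.

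**Figure D4:**
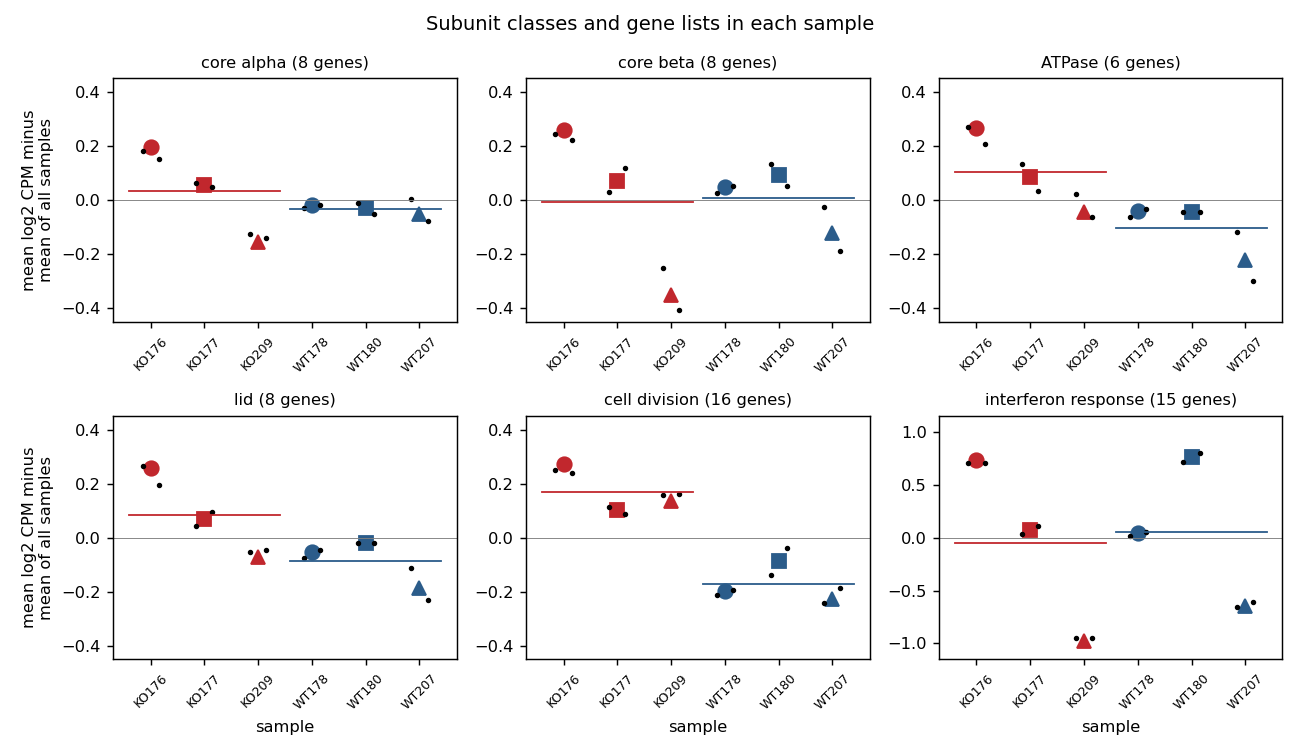
Mean log2 CPM of the genes of 4 subunit classes, of cell division and of the interferon response, relative to the mean of all samples (vertical axis, wider in the last panel), in each sample (horizontal axis). Large symbols are samples, dots their 2 libraries (relative to the mean of the 12 libraries) and lines the genotype means. The beta genes dip to -0.35 in KO209, the sample with the lowest interferon response, and the ATPases to -0.22 in WT207.

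The sample numbers fall into 2 ranges, the lower (KO176 to WT180) and the upper (WT207 and KO209), and what they stand for is not given. In the lower range, with 2 samples per genotype, 33 of the 36 members were higher on average in *Ythdc1* Δ/Δ samples, with a median log2 difference of 0.18. Of the genes of similar level 74.9% were, with a median of 0.11, and of all genes tested 49.4%. Between KO209 and WT207, 1 sample each and so without a replicate check, 21 were, with a median of 0.04, against 47.0% of the genes of similar level, with a median of -0.02. The ATPases were higher in both ranges, 6 of 6 each time, with medians of 0.21 and 0.18. The lid genes were higher 8 times of 8 and 7 times of 8, with medians of 0.19 and 0.12. The beta genes were higher 7 times of 8 in the lower range and once between KO209 and WT207, with medians of 0.06 and -0.28. With a term for the range in the fit, 28 of the 36 members were above 0 (48.3% of all genes) and 0 were called, with 6 higher at an unadjusted p under 0.05 (6.35% of all genes).

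The interferon response varied more between samples than any subunit class. Its 15 genes stood at 0.74, 0.07 and -0.97 in KO176, KO177 and KO209 and at 0.05, 0.76 and -0.65 in WT178, WT180 and WT207 on the same relative log2 scale, and 0 of them passed. *Irf7* was at 414, 196 and 41.1 CPM against 152, 416 and 43.3 CPM. Of the 15 genes 7 had a log2 fold change above 0 and 8 below it, with a median of -0.07. *Gbp2*, *Irf1* and *Stat2*, the genes of the list with the smallest p, had log2 fold changes of -0.34, -0.24 and -0.25 (edgeR adjusted p = 0.500, 0.529 and 0.697). *Psmb8*, *Psmb9* and *Psmb10* together stood at 0.20, 0.09 and -0.47 and at 0.09, 0.21 and -0.12. KO209 and WT207 were thus lowest for these genes as for many members, and the part of interferon in the members' values was not tested.

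Genes of cell division lay above 0 alongside. All 16 listed had a log2 fold change above 0 (48.9% of all genes), with a median of 0.36, 10 of them at an unadjusted p under 0.05 (4.28% of all genes), and 0 passed over all genes in edgeR. The list stood at 0.27, 0.10 and 0.14 in the *Ythdc1* Δ/Δ samples and at -0.20, -0.09 and -0.23 in the *Ythdc1* +/+ samples, without overlap. The values of the ATPases overlapped only narrowly, with KO209 at -0.0425 and WT178 at -0.0403. Those of the lid overlapped too, with KO209 at -0.07 and WT180 at -0.02. Such narrow overlaps depend on the scaling. *Ttk*, *Bub1b* and *Ccna2* had log2 fold changes of 0.49, 0.45 and 0.46.

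Other genes of the pathway were followed through lists, and 0 of their genes passed over all genes in edgeR. Of all genes tested, 48.9% were above 0 and 7.75% were higher without overlap, which are the shares to set beside the lists. The ubiquitin genes come first. Of 4 genes for ubiquitin and its activating enzymes 3 were above 0, with a median log2 fold change of 0.11. *Uba1*, the main E1 enzyme, was at 299.6, 284 and 280.0 CPM in KO176, KO177 and KO209 and at 223, 233 and 255 CPM in WT178, WT180 and WT207. Its groups did not overlap, and the log2 fold change was 0.28 (SE 0.11, edgeR adjusted p = 0.462). *Uba6*, another E1 enzyme, had a log2 fold change of 0.17. *Ubb*, the gene of the list below 0, was at 4617, 4181 and 3276 CPM against 4655, 4505 and 3897 CPM, a log2 fold change of -0.11.

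Other genes bring substrates to the particle. Of 8 shuttle and unfoldase genes 6 were above 0, with a median of 0.16. *Ubqln4*, a shuttle, was at 48.2, 39.8 and 37.5 CPM against 33.9, 32.6 and 34.9 CPM without overlap, a log2 fold change of 0.31 (SE 0.12, edgeR adjusted p = 0.471). *Rad23b*, with a log2 fold change of 0.34, was at 93.4, 60.4 and 54.3 CPM against 53.8, 53.0 and 57.7 CPM. KO176 stood apart, and WT207 exceeded KO209. *Vcp*, the unfoldase p97, had 0.21. Of 5 receptors and enzymes bound to the particle 3 were above 0, with a median of 0.19. The deubiquitinases *Usp14* and *Uchl5* had 0.34 and 0.23, and the receptor *Adrm1* had 0.19. *Sem1* and *Ube3c* had -0.13 and -0.07.

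Activators, assembly factors and regulators were mixed. Of 5 activators and inhibitors 2 were above 0, with a median log2 fold change of -0.00480. *Psme3*, an activator of nuclear proteasomes, had 0.31, *Psme4* -0.12 and *Psmf1* 0.07. *Psme3* was at 411, 311 and 258 CPM against 299, 234 and 254 CPM, highest in KO176 and with an overlap. Of 6 assembly factors in the table and tested 5 were above 0, with a median of 0.09. *Psmg2* was at 96.8, 101 and 98.2 CPM against 90.6, 84.4 and 82.7 CPM without overlap (log2 fold change 0.20), and *Ecpas* had 0.16 and *Psmg1* 0.08. Of 7 tested regulators of proteasome gene transcription 5 were above 0, with a median of 0.05. *Nfe2l1* was at 45.9, 41.4 and 46.5 CPM against 32.0, 41.0 and 41.3 CPM, a log2 fold change of 0.23 (SE 0.13, edgeR adjusted p = 0.621). Its groups did not overlap, but KO177 and WT207 were nearly equal, and WT178 lay far below the other samples. *Ddi2*, the protease that activates NFE2L1, had 0.21, and *Nfyb*, a subunit of NF-Y, had 0.26. *Nfe2l3* was under 1 CPM in all samples and was not tested.

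Some members share sequence or exons with other genes, which limits their single values. Exons of other genes cover 12.1% of the exon length of *Psmb5*, in the microRNA gene *Mir686*, and 8.25% and 7.61% of those of *Psmc3* and *Psmd1*. Of 100-base stretches, 23.7% of *Psma5*, 22.2% of *Psmb5* and 13.4% of *Psma3* recur in other annotated genes. The 4 pseudogenes named for members reached at most 0.288 CPM.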

How the data were processed

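The deposited table holds counts of read pairs per gene, not normalized. According to the file header and the submitters' notes, the authors made it with featureCounts 2.0.1 on GENCODE vM23 genes of mm10, without a strand option. The study's methods name Hisat2 for mapping. The FPKM values they describe were not used here.

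All 12 columns were matched to the labels by title, and counts of the 2 libraries of a title number were summed. Symbols came from the Ensembl identifiers. Genes were tested with edgeR 4.0.16 in R 4.3.3 (robust quasi-likelihood fit without the legacy option, filterByExpr with min.count 10 and min.total.count 15, TMM scaling, Benjamini-Hochberg adjustment over 18234 genes). Intervals use the t quantile of the fit, and standard errors come from the F statistic. Log2 CPM values for scores used a prior count of 2. Alternatives used DESeq2 1.42.0 and limma 3.58.1. The steps were tested on simulated counts of 3 against 3 samples, with 200 changed genes of all levels in each of 3 runs. On average 10.5% of the 1.5-fold and 48.7% of the 2-fold changes were called, and 8.06% of the calls were false. A lack of calls among the members is therefore weak evidence that small changes are absent. Depth was 42098649 to 48095239 counts per summed sample.

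Members and gene lists were chosen with earlier results of these data known. Named are the 3 tested members of each role with the smallest p, the highest and lowest level per kb, *Psmb5*, *Psmb6*, *Psmb7*, *Psma8*, *Psmb10* and *Psmb11*, and up to 3 genes of each pathway list with the smallest p. Other genes named were chosen after their values were seen. Shared sequence was read from GENCODE vM21 transcripts. Genes of 1 pathway list are not reported here, and that list was counted without them.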

Additional observations from a re-analysis of the deposited data

How the results depend on the processing

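No sample-number pairing exists between the genotypes, as no title number occurs in both. The last digit of the title does. With it as a replicate block over the 12 libraries, 1 member was called higher (4.61% of all genes were called in either direction). The count was 2 for the 12 libraries as separate samples (4.83% of all genes) and 0 in the other fits. The median log2 fold change of the members kept its sign in each fit and spanned 0.06 to 0.23 when 1 sample was left out. The number of members higher without overlap was 5 (7.75% of all genes). It spanned 5 to 25 when 1 sample was left out, with 25 reached without KO209 (16.7% of all genes). It was 11 with upper quartile scaling (7.82% of all genes). It was 13 without a TMM factor (6.14% of all genes), an alternative added after seeing the data. For KO176 to WT180 alone, with 2 samples per genotype, it was 25. Groups of fewer samples separate more easily, and 74.9% of the genes of similar level were above 0 in this range. The share of all genes without overlap was not counted there, so this count cannot be set beside a background. The number lower without overlap was 0 (8.59% of all genes). It spanned 0 to 1 when 1 sample was left out and was 1 with upper quartile scaling and 1 without a TMM factor. For these alternatives the share of all genes was not counted. Fits that change the model and not the levels give no such count. Without division by length the ratio of the highest to the lowest tested member was 47.6 in place of 85.5. Of the named members, *Psmb5* had the opposite sign under 8 alternatives, *Psmd5* under 3, *Psmb2*, *Psmb4*, *Psmb6* and *Psmd4* under 2 each and *Psmb10* under 1, none of them called.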
